A study of Homo sapiens with 6 samples.

Results

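The BCL2 family genes examined here are 10 regulators of mitochondrial apoptosis, taken from the deposited tables by gene name: BCL2, BCL2L1, BCL2A1, MCL1, BCL2L11, BBC3, PMAIP1, BAX, BAK1 and BMF. All 10 were found, each in a single row, among 57914 genes. RNA sequencing had been carried out on A375, an established human melanoma cell line grown in high-glucose medium with fetal calf serum. The cells were stained with Aldefluor, a substrate that becomes fluorescent when aldehyde dehydrogenases (ALDH) act on it, and sorted by flow cytometry. The ALDH_High group was the 5% of cells with the strongest signal and the ALDH_Low group the 5% with the weakest, with 3 libraries each, numbered 1 to 3. Every library carries the same stain and comes from the same line, and the labels name no drug. They do not say whether the replicates were separate cultures or sorts, so the p-values measure the spread between these libraries only.

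Proteins of the BCL2 family decide whether the outer mitochondrial membrane is opened during apoptosis. The effectors BAX and BAK1 form the openings through which cytochrome c escapes and caspases are activated. The pro-survival members BCL2, BCL-XL (gene BCL2L1), MCL1 and BFL-1 (BCL2A1) hold the effectors in check, and the BH3-only members BIM (BCL2L11), PUMA (BBC3), NOXA (PMAIP1) and BMF bind the pro-survival proteins and release that block. In melanoma, BIM and BMF are known as genes whose products accumulate when MAPK signalling is inhibited, and BCL2A1 and BCL2 are known targets of the melanocyte factor MITF.

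Of the 10 genes, 2 differed between the groups and 8 did not pass the test. BCL2L11 and PMAIP1, both BH3-only genes, were lower in ALDH_High, by 2.15-fold and 1.83-fold. None of the 4 pro-survival genes and neither effector passed in edgeR, and 0 of these 6 had an unadjusted p below 0.05 or passed with DESeq2 or limma. The share of members called, 2 of 10, was close to that of all 17047 genes tested, of which 20.6% passed in either direction. Of all genes tested, 10.8% passed as higher and 9.83% as lower in ALDH_High (edgeR quasi-likelihood test, Benjamini-Hochberg adjusted p below 0.05). The share called in the family lay at the background, and its median log2 fold change of 0.020 lay beside -0.013 for all genes tested. All members passed the filter on low counts.

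The sequences ahead of the start sites of BCL2L11 and PMAIP1 are shown because these are the 2 members that passed the test. They are the 250 bases before the RefSeq start on GRCh38.p14, 5′ to 3′ on the plus strand, on which both genes lie. Capitals mark matches to the motifs searched on both strands. The window of PMAIP1 is chr18:59899746-59899995 and ends just before the first annotated base of the gene. That of BCL2L11 is chr2:111120664-111120913, which in the GENCODE annotation lies inside the gene, in an intron of a transcript that starts further upstream.
PMAIP1: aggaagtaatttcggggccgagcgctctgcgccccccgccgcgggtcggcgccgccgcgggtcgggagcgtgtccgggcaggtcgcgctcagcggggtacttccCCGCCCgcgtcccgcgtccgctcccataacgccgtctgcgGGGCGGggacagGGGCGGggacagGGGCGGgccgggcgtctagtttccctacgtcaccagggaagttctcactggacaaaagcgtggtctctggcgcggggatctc
BCL2L11: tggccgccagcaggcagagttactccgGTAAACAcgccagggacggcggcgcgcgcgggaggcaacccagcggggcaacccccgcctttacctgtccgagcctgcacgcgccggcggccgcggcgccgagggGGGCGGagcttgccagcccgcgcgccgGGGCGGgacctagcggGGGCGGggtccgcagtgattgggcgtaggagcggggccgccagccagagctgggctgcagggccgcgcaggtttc
Both windows were rich in G and C, at 72.8% for PMAIP1 and 76.8% for BCL2L11, against a median of 58.0% over 35116 RefSeq promoters. The window of PMAIP1 held 4 copies of the GC box (GGGCGG) and that of BCL2L11 held 3. Of all promoter windows of this length, 42.6% held at least 1 copy. Copies per window were not counted over all promoters or over those of like G and C content. BCL2L11 also held the forkhead motif GTAAACA, from 223 to 217 bases before the start, which 2.98% of promoters had. Neither window held the AP-1 motif TGANTCA (6.57% of promoters), the full cAMP response element TGACGTCA (1.65%) or the C/EBP-ATF motif TGATGNAA (3.14%). Both also lacked the E-box CACGTG (6.34%) and TATAAA (10.7%). Partial or inexact cAMP response elements were not searched. Such matches describe the letters in these windows and no binding was measured. Promoter entries were matched for 9 of the 10 members, all but MCL1. Among the matched members that did not pass, BAX, BAK1 and a window of BMF also held the GC box. The windows of BCL2, BCL2L1, BCL2A1 and BBC3 held none. The G and C content of the members that did not pass ran from 38.8% (BCL2A1) to 70.0% (BCL2).

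Total counts lay between 26692868 and 37830603 per library. ALDH1A3, the enzyme gene in the study's title, had a CPM (count scaled to library size) of 683, 1149 and 1088 in ALDH_High, against 345, 420 and 403 in ALDH_Low, a log2 fold change of 1.32 (SE 0.19; adjusted p in edgeR = 0.000734). ALDH_High library 1 had the lowest ALDH1A3 level of its group, and it stood apart from libraries 2 and 3 over all genes, with a chi-square per degree of freedom of 43.9 and 54.3 against them where libraries 2 and 3 gave 13.3 between them. Of 12 melanoma cell markers, 9 were high enough to be tested, with summed levels of 4946 to 6330 CPM in the high and 4583 to 4686 CPM in the low group, and 7 of them passed the test, 4 higher (S100A1, S100B, SOX10 and CSPG4) and 3 lower (SOX9, MITF and AXL), with log2 fold changes from -1.79 to 4.75. SOX10 and VIM were expressed in every library. The pigment genes MLANA, TYR and DCT were at or near 0, with at most 10 counts in any library. PMEL, also a pigment gene of the list, was tested and did not pass. Among 9 white blood cell markers, PTPRC, CD3E, MS4A1 and TYROBP had at most 4 counts in any library and MS4A1 had 0 in all. The summed level of the 9 was 14.2 to 29.7 CPM in the high and 58.9 to 69.9 CPM in the low group, of which CD68, a lysosomal gene that many cell types express, made up 11.3 to 22.6 and 55.7 to 68.0 CPM. All 3 white blood cell markers tested passed, CD68 (-1.86) and CD14 (-1.96) as lower and LYZ (1.65) as higher. The shares called were 77.8% of the melanoma and 100% of the white blood cell markers tested, against 20.6% of all genes tested. The 8 fibroblast and endothelial markers summed to 18.5 to 21.0 CPM in the high and 20.4 to 23.9 CPM in the low group. Of these 8, 7 were tested and 1 (14.3%) passed, as lower. Log2 fold changes of the 7 ran from -0.80 to 1.30. The part of these markers in the member results was not tested.

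PMAIP1 encodes NOXA, a BH3-only protein that binds mainly MCL1 and promotes its degradation. It had 16.2, 18.2 and 21.6 CPM in libraries 1, 2 and 3 of ALDH_High, against 32.9, 35.5 and 34.2 CPM in the same order for ALDH_Low. All ALDH_High values lay below all ALDH_Low values, and the spread within ALDH_Low was narrow. Such separation held for 2 of the 10 members and for 37.8% of all genes tested. The group means were 18.7 ± 2.73 and 34.2 ± 1.32 CPM (SD, n = 3), a log2 fold change of -0.87 (SE 0.14, 95% interval -1.18 to -0.57, edgeR adjusted p = 0.00151). An exact two-sided permutation test over the libraries gave p = 0.1, the smallest that 3 against 3 can give. PMAIP1 ranked 953 of the 17047 genes by p. In these sorted bulk samples, fewer cells that express a gene and less RNA per cell cannot be told apart.

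BCL2L11 encodes BIM, a BH3-only protein able to bind all the pro-survival members and to activate BAX and BAK1 directly. It had 5.32, 4.75 and 6.71 CPM in ALDH_High, against 10.2, 11.2 and 14.7 CPM in ALDH_Low. The groups did not overlap, and ALDH_Low library 3 had the highest value. The means were 5.59 ± 1.01 and 12.0 ± 2.33 CPM (SD, n = 3), with a log2 fold change of -1.10 (SE 0.21, 95% interval -1.57 to -0.64, edgeR adjusted p = 0.00424; exact permutation p = 0.1). The limma test on log2(TPM + 1) over all genes with a TPM above 0 gave an adjusted p of 0.0508 for BCL2L11. BCL2L11 lies on the strand opposite to the long non-coding gene MIR4435-2HG, whose exons overlap its own. The kit marks strand, but whether the counting used it is not given in the sources used here, so the assignment of reads in the shared stretch is uncertain. MIR4435-2HG had 943 to 2018 counts per library and a log2 fold change of -0.35 (edgeR adjusted p = 0.0594).

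BMF encodes a BH3-only protein tethered to the actin-based motors of the cytoskeleton. Its counts were low, at 30, 9 and 47 in the ALDH_High libraries and 86, 41 and 54 in the ALDH_Low libraries, or 1.18, 0.261 and 1.38 against 2.23, 1.37 and 1.94 CPM. The groups overlapped by a narrow margin, at ALDH_High library 3 and ALDH_Low library 2. The log2 fold change of -0.99 had a 95% interval of -2.11 to 0.14 (SE 0.50, edgeR adjusted p = 0.212, exact permutation p = 0.2). A difference was thus not shown, and the interval leaves room for a lower level in ALDH_High. The part of low counts and of spread between libraries in that width was not tested. Without ALDH_High library 2, the lowest of all, the log2 fold change was -0.51.

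BBC3 encodes PUMA, a BH3-only protein that, like BIM, binds every pro-survival member. Its levels were 8.36, 7.09 and 6.30 CPM in ALDH_High, against 7.50, 7.19 and 7.55 CPM in ALDH_Low. The ALDH_Low values sat inside the range of the ALDH_High values. BBC3 gave a log2 fold change of -0.034 with a 95% interval of -0.44 to 0.37 (edgeR adjusted p = 0.923), which places the ratio of ALDH_High to ALDH_Low between 0.739 and 1.29.

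**Figure D1:**
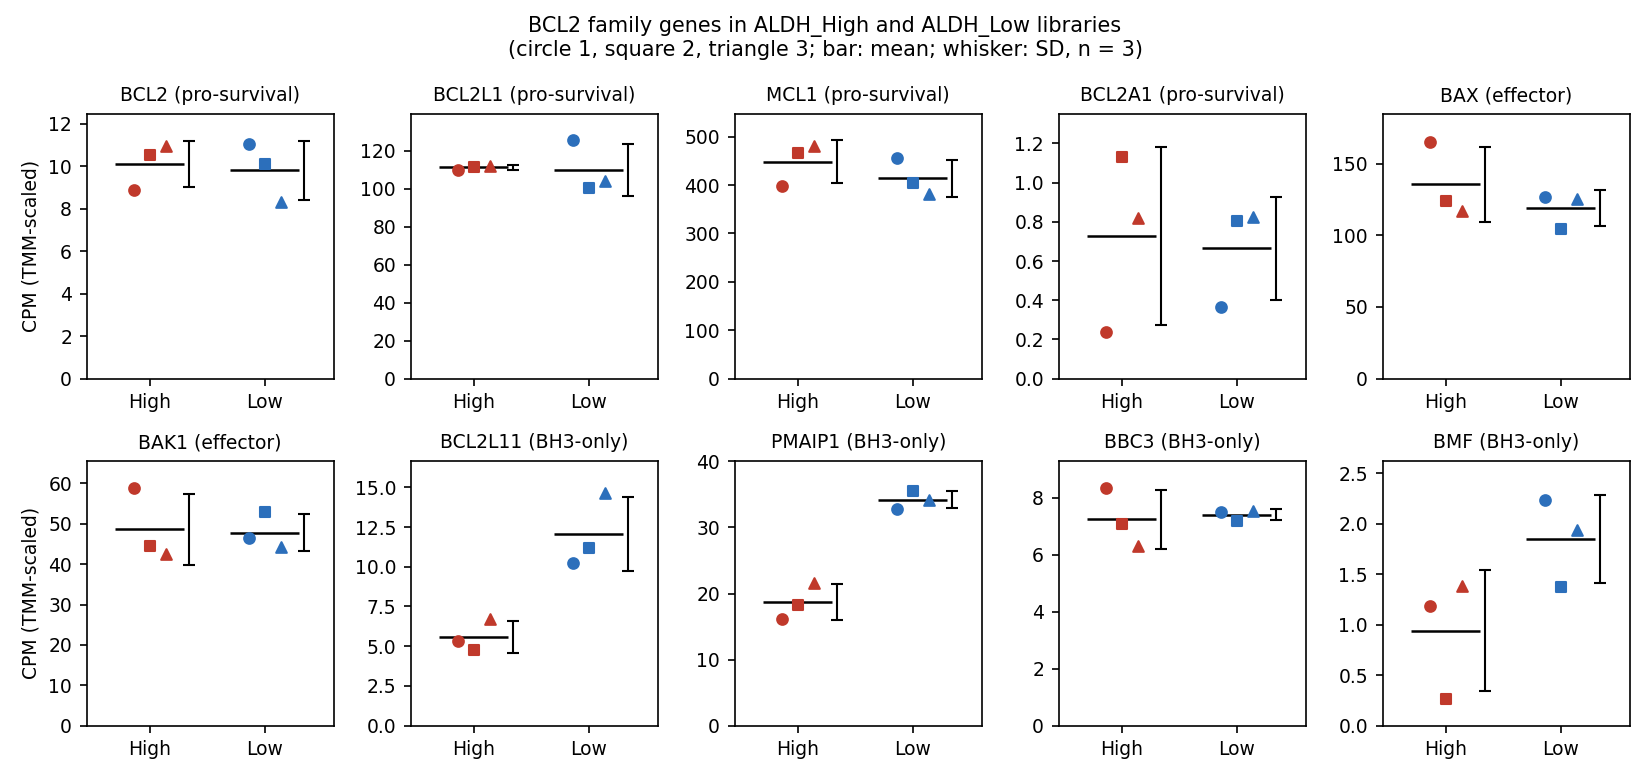
CPM of the 10 BCL2 family genes (vertical axes, starting at 0, TMM-scaled) in the 3 ALDH_High and 3 ALDH_Low libraries, with the mean as a bar and the SD as a whisker. PMAIP1 (16.2 to 21.6 against 32.9 to 35.5 CPM) and BCL2L11 (4.75 to 6.71 against 10.2 to 14.7 CPM) are the only panels in which the groups do not overlap.

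Among the pro-survival genes, MCL1 was the most abundant. MCL1 encodes a short-lived protein that holds BAK1 and BIM. It had 398, 465 and 481 CPM in ALDH_High, against 455, 404 and 382 CPM in ALDH_Low, with overlapping groups. The log2 fold change was 0.11 (SE 0.12, 95% interval -0.15 to 0.38, edgeR adjusted p = 0.562), a ratio between 0.902 and 1.30. Exons of ADAMTSL4 overlap MCL1 on the opposite strand. ADAMTSL4 had at most 1414 counts per library, against 10083 to 17561 for MCL1, and was lower in ALDH_High (log2 fold change -1.50, edgeR adjusted p = 0.000914).

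BCL2L1 encodes BCL-XL. It had 109.9, 112 and 112 CPM in ALDH_High, against 125, 100.2 and 104 CPM in ALDH_Low. The ALDH_High libraries were nearly equal and lay within the ALDH_Low range. The log2 fold change was 0.017 (SE 0.12, 95% interval -0.24 to 0.28, edgeR adjusted p = 0.940), a ratio between 0.846 and 1.21, the narrowest interval of the 10 members.

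BCL2, the founding member of the family and the target of the drug venetoclax, had 8.87, 10.5 and 10.9 CPM in ALDH_High, against 11.02, 10.1 and 8.30 CPM in ALDH_Low. The groups overlapped over nearly their whole range. BCL2 gave a log2 fold change of 0.043 (SE 0.18, 95% interval -0.35 to 0.43, edgeR adjusted p = 0.899), a ratio between 0.786 and 1.35.

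BCL2A1 had 6, 39 and 28 counts in the ALDH_High libraries and 14, 24 and 23 counts in the ALDH_Low libraries, or 0.237, 1.13 and 0.821 against 0.363, 0.803 and 0.827 CPM. Library 1 was the lowest in each group. The log2 fold change of 0.18 had a 95% interval of -1.02 to 1.38 (edgeR adjusted p = 0.861), which leaves room for a difference of more than 2-fold in either direction. MITF, the factor known to drive BCL2A1, was at 13.04 ± 0.944 against 24.7 ± 6.62 CPM (SD, n = 3; log2 -0.92, edgeR adjusted p = 0.00667).

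The effectors showed no difference that passed the test. BAX had 165, 124 and 117 CPM in ALDH_High, against 127, 105 and 125 CPM in ALDH_Low. ALDH_High library 1 was the highest of the 6, and the other ALDH_High libraries lay within the ALDH_Low range. For BAX the log2 fold change was 0.19 (SE 0.15, 95% interval -0.14 to 0.52, edgeR adjusted p = 0.438) and was 0.037 without ALDH_High library 1. BAK1 had 58.8, 44.5 and 42.6 CPM in ALDH_High, against 46.5, 52.8 and 44.1 CPM in ALDH_Low, again with ALDH_High library 1 on top. Its log2 fold change was 0.023 (SE 0.15, 95% interval -0.30 to 0.35, edgeR adjusted p = 0.938). The processed pseudogenes BAK1P1 and BAK1P2 took at most 2 counts in any library.

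**Figure D2:**
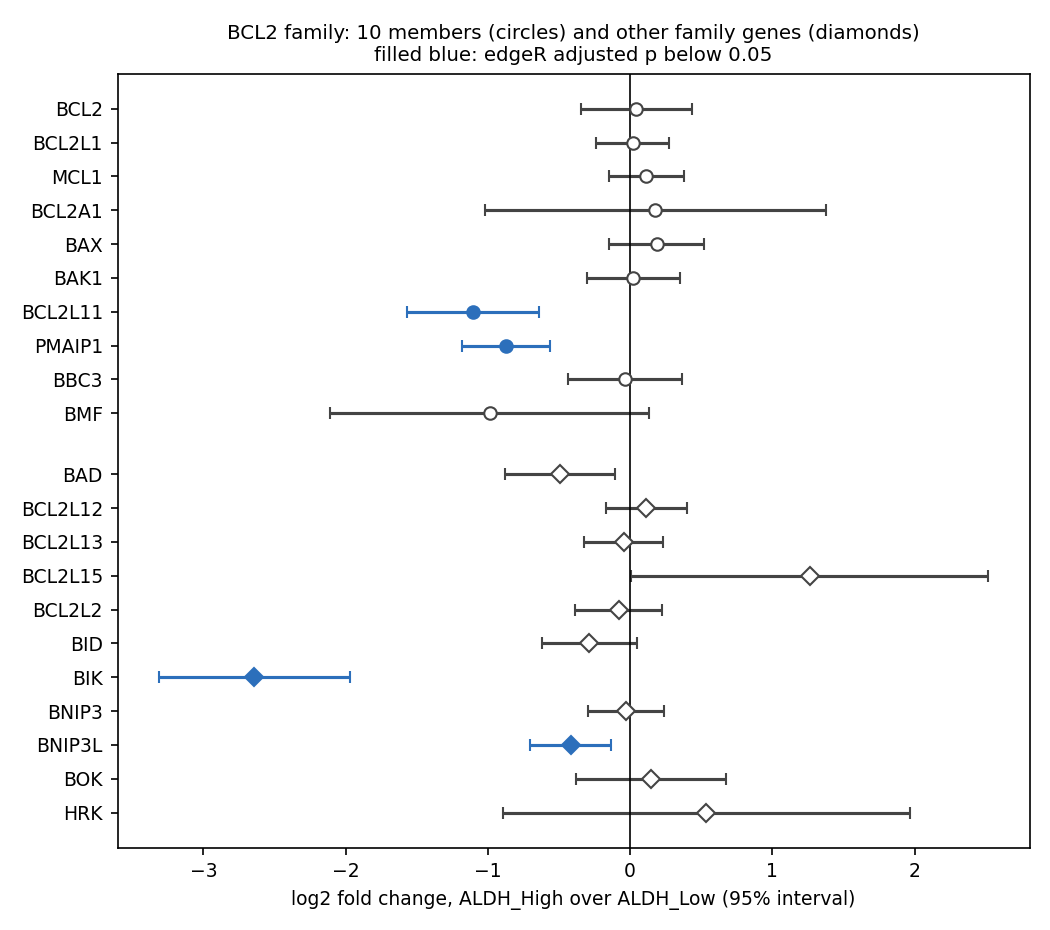
Log2 fold change of ALDH_High over ALDH_Low (horizontal axis) with its 95% interval for the 10 members (circles) and the 11 other family genes tested (diamonds), filled where the edgeR adjusted p is below 0.05. BCL2L11 (-1.10), PMAIP1 (-0.87), BIK (-2.64) and BNIP3L (-0.42) are the filled points, all on the lower side.

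Levels of different genes were compared on the TPM scale, which corrects for gene length. In ALDH_Low the mean TPM fell in the order BAX (225), MCL1 (184), BCL2L1 (63.4), PMAIP1 (44.0), BAK1 (29.5), BBC3 (8.02), BCL2L11 (6.86), BCL2 (2.45), BCL2A1 (1.07) and BMF (0.735). Neighbours in that order overlapped for BAX with MCL1, BBC3 with BCL2L11, and BCL2A1 with BMF. In ALDH_High the mean TPM was 263 for BAX, 207 for MCL1, 66.5 for BCL2L1, 30.8 for BAK1, 25.0 for PMAIP1, 8.08 for BBC3, 3.32 for BCL2L11, 2.61 for BCL2, 1.26 for BCL2A1 and 0.386 for BMF. There the overlapping neighbours were BAK1 with PMAIP1, BCL2L11 with BCL2, and BCL2A1 with BMF. PMAIP1 and BAK1 thus stood in opposite order in the 2 groups, with overlap in ALDH_High and none in ALDH_Low.

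The makeup of the pro-survival group was alike in all libraries. MCL1 made up 72.8% to 75.7% of the summed TPM of the 4 pro-survival genes and BCL2L1 22.9% to 26.1%, while BCL2 stayed at or below 1.04% and BCL2A1 at or below 0.669%. BAX made up 85.9% to 89.7% of the summed effector TPM. PMAIP1 took most of the BH3-only TPM in every library, at 67.6 ± 4.65% in ALDH_High and 73.8 ± 1.94% in ALDH_Low (SD, n = 3). The share of BBC3 was 27.1%, 22.6% and 17.5% in the ALDH_High libraries and 14.2%, 12.9% and 13.3% in the ALDH_Low libraries, its own level being nearly the same in both groups.

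Ratios within a library show how the members stood to each other. The summed TPM of the 4 pro-survival genes was 7.27, 8.12 and 7.25 times that of the 4 BH3-only genes in ALDH_High, and 4.86, 3.99 and 3.80 times in ALDH_Low. The ranges did not overlap, while the ratio of the pro-survival to the effector sum did, at 0.697 to 1.14 and 0.882 to 1.05. The TPM ratio of MCL1 to PMAIP1, the transcript of its partner NOXA, was 8.49, 8.81 and 7.69 in ALDH_High and 4.79, 3.93 and 3.85 in ALDH_Low. The ratio of MCL1 to BCL2L11 was 58.2, 76.3 and 55.7 in ALDH_High and 34.5, 28.1 and 20.2 in ALDH_Low. BCL2L1 to BCL2L11 gave 20.9, 23.8 and 16.9 against 12.3, 9.02 and 7.14. The ratio of MCL1 to BBC3 overlapped, at 19.5 to 31.4 and 20.8 to 25.0. Within the BH3-only group, PMAIP1 over BBC3 separated the groups, at 2.30 to 4.08 in ALDH_High and 5.22 to 5.86 in ALDH_Low, while PMAIP1 over BCL2L11, both of which fell, overlapped at 6.86 to 8.66 and 5.25 to 7.21. These ratios are descriptions built on the members above and carry no test of their own. They compare transcripts, and protein was not measured.

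**Figure D3:**
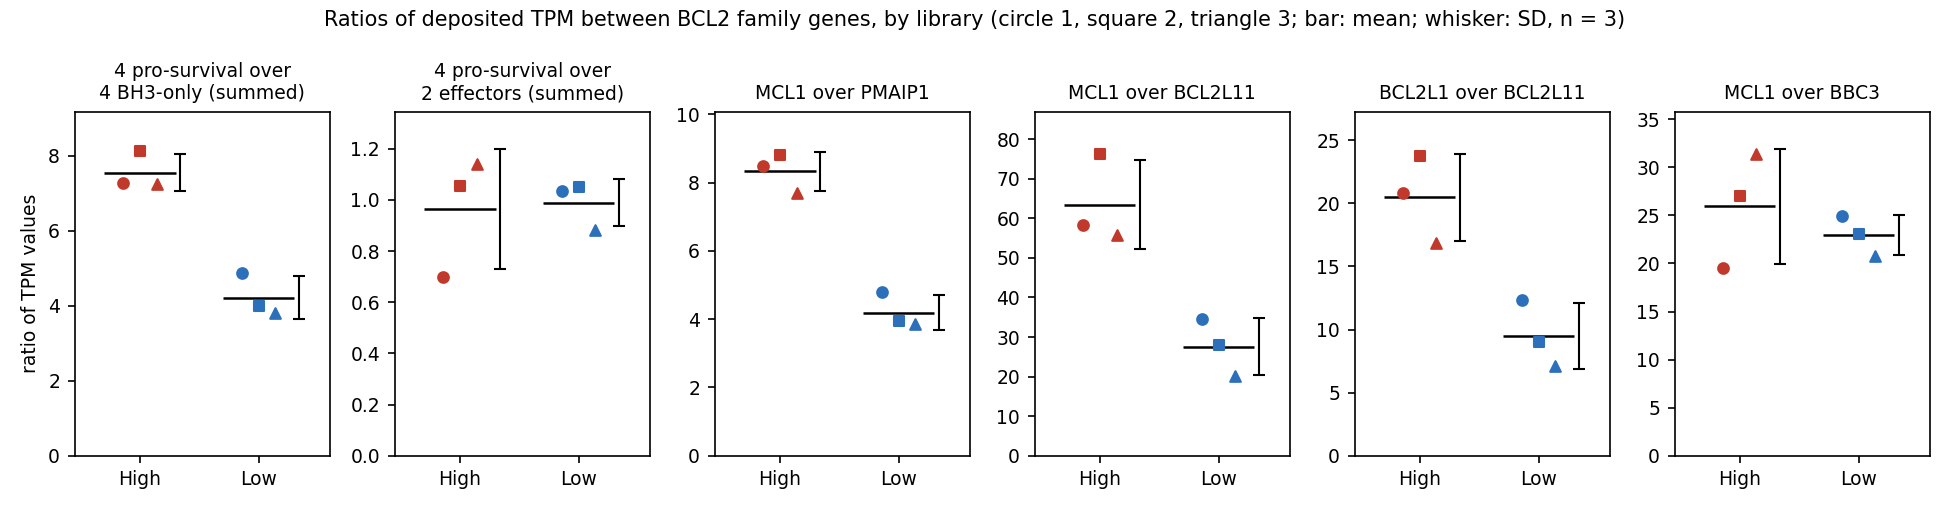
Ratios of deposited TPM values (vertical axes, starting at 0) between groups of members or single members in each library, with the mean as a bar and the SD as a whisker. Of the 6 ratios drawn, the 4 with PMAIP1, BCL2L11 or the BH3-only sum as the divisor separate the groups (8.33 ± 0.575 against 4.19 ± 0.517 for MCL1 over PMAIP1), while pro-survival over effector and MCL1 over BBC3 overlap.

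PMAIP1 (chromosome 18, 59899996 to 59904305, GRCh38) and BCL2 (chromosome 18, 63123346 to 63320128) lie on the same chromosome, on which 261 other tested genes had a median log2 fold change of -0.32 beside PMAIP1. Within 5 Mb of the start of PMAIP1, 32 of 36 tested genes were lower in ALDH_High, with a median of -0.56, and 15 of them passed the test as lower. PMAIP1, at -0.87, lay below that median, and 12 of the 36 neighbours were lower still. Around BCL2, 25 of 28 genes were lower, with a median of -0.58, while BCL2 itself stood at 0.043 and only 2 neighbours stood higher. The starts of PMAIP1 and BCL2 lie 3.42 Mb apart, so the 2 windows share most of their genes and are not separate observations. Within this stretch of lower genes PMAIP1 stood in the lower part and BCL2 near the top. How much of the PMAIP1 difference follows the chromosome was not tested.

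BCL2L1 (chromosome 20, 31664452 to 31723989) lies on a chromosome that went the other way, where 436 other genes had a median of 0.25 on the log2 scale, as did the 75 genes within 5 Mb. Of those 75, 17 passed as higher and 3 as lower, and BCL2L1 at 0.017 stood among the lower part of them, with 22 below it. BCL2L11 (chromosome 2, 111119378 to 111168444) had no such surroundings: its 47 neighbours had a median of -0.016, 24 of them were lower, and 4 were lower than BCL2L11. The median of the neighbours lay between -0.10 and 0.0074 for the other 6 members, which are MCL1 on chromosome 1 (150560895 to 150579738), BAK1 on chromosome 6 (33572547 to 33580293), BMF (40087890 to 40108892) and BCL2A1 (79960892 to 79971196) on chromosome 15, and BBC3 (47220822 to 47232766) and BAX (48954815 to 48961798) on chromosome 19.

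**Figure D4:**
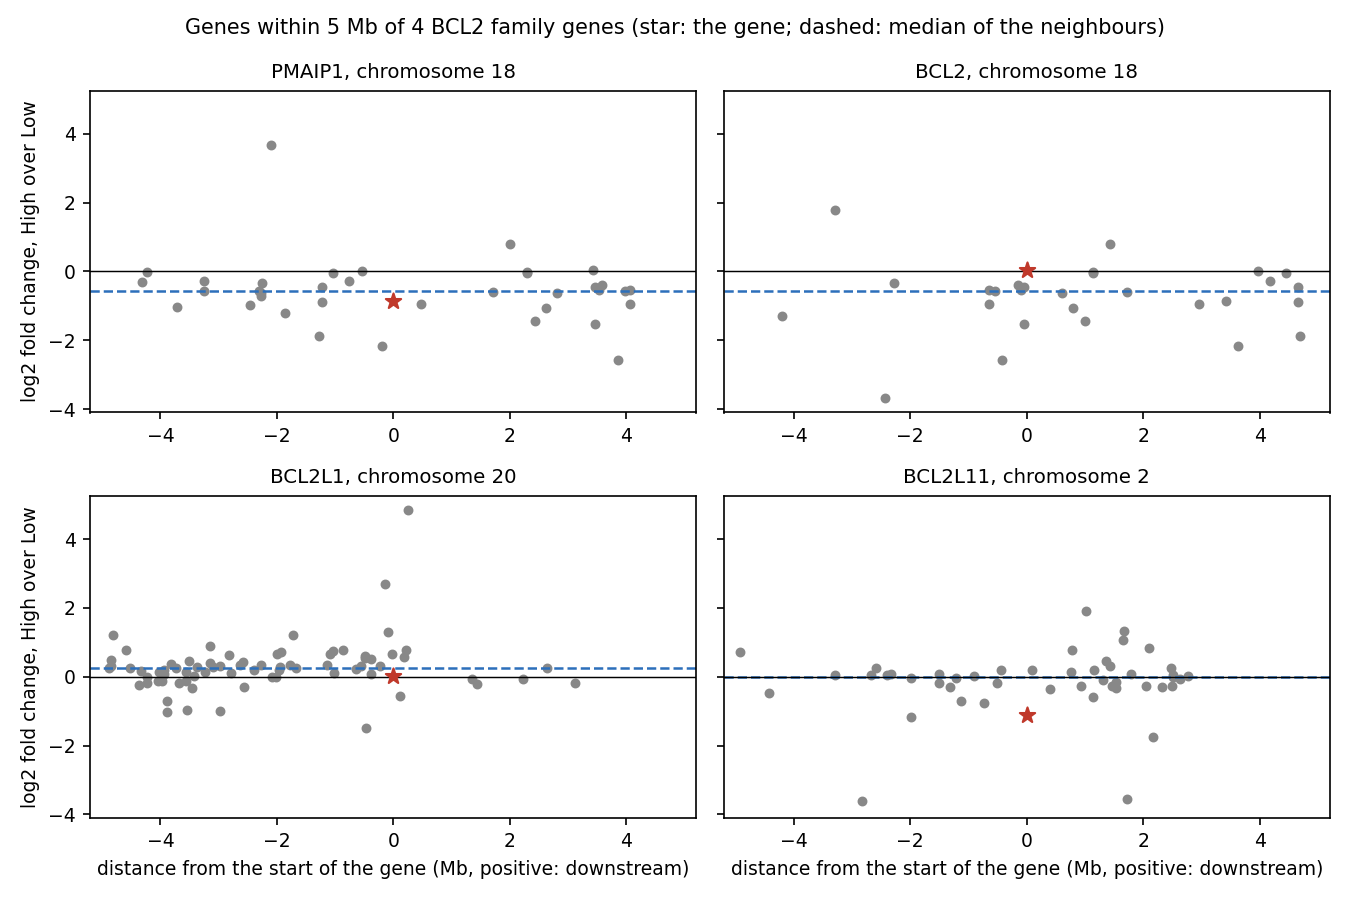
Log2 fold change (vertical axis) of tested genes within 5 Mb of the start of PMAIP1, BCL2, BCL2L1 and BCL2L11, by distance from that start (horizontal axis, Mb), with the member as a star and the median of its neighbours as a dashed line. The dashed line lies at -0.56 and -0.58 on chromosome 18, at 0.25 on chromosome 20 and at -0.016 on chromosome 2. The windows of PMAIP1 and BCL2 share most of their genes.

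Of 13 further BCL2 family genes, 11 were tested, 2 were lower and the other 9 did not pass in edgeR, so that 18.2% were called, close to the 20.6% of all genes. BIK, a BH3-only gene whose protein sits at the endoplasmic reticulum, had 0.592, 0.521 and 0.440 CPM in ALDH_High, against 3.84, 2.74 and 3.09 CPM in ALDH_Low. The groups were far apart, at a log2 fold change of -2.64 (SE 0.30, edgeR adjusted p = 0.000214), on a low level of 15 to 18 counts per ALDH_High library. BNIP3L, a mitophagy receptor with a BH3-like stretch, was at 23.3 ± 2.18 against 31.2 ± 2.53 CPM (SD, n = 3; -0.42, edgeR adjusted p = 0.0445) and missed the threshold in 10 of 15 alternatives, among them all 6 fits that left out a library (adjusted p 0.0525 to 0.170). BAD, a BH3-only gene looked up after its values were seen, had 49.0, 32.2 and 30.4 against 52.1, 51.8 and 52.8 CPM. The BAD groups did not overlap, and its edgeR adjusted p was 0.0739. Without ALDH_High library 1 the log2 fold change of BAD was -0.72 (edgeR adjusted p = 0.00130), against -0.49 with it. BAD also passed with the replicate block (edgeR adjusted p = 0.0399), upper-quartile factors (0.0489) and no filter (0.0111). The pro-survival gene BCL2L2 had a log2 fold change of -0.080 (edgeR adjusted p = 0.742).

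Downstream of the mitochondria, 15 genes of caspase activation and execution were tested, of which 1 was higher and 1 lower, with a median log2 fold change of 0.048. The share called was 13.3%, against 20.6% of all genes tested. APAF1, the scaffold on which cytochrome c activates caspase 9, was higher, at 28.5 ± 2.61 against 16.5 ± 3.03 CPM (SD, n = 3; 0.79, SE 0.16, edgeR adjusted p = 0.00630). CASP6, an executioner caspase, was lower (-0.81, edgeR adjusted p = 0.0438), a call lost in 5 of the 6 fits without a library. Of the inhibitor of apoptosis proteins, 6 of 7 were tested, and BIRC2 (0.72, edgeR adjusted p = 0.00638) and BIRC5 (0.55, edgeR adjusted p = 0.00986) were higher, where 10.8% of all genes tested were. BIRC2 encodes a ubiquitin ligase of TNF receptor signalling. BIRC5 encodes survivin, which also acts in mitosis. Of the 15 genes of the G2 and M phase list, 9 were higher and 0 lower, where 10.8% and 9.83% of all genes tested were. The list summed to 4665 to 5158 CPM in ALDH_High against 3021 to 3542 CPM in ALDH_Low. CDK1 (1.66), UBE2C (1.76) and TOP2A (1.19) were among the higher genes. The part of cell cycle phase in the BIRC5 difference, or in those of the members, was not tested. In the death receptor pathway, 1 of 9 tested genes passed, a share of 11.1% against 20.6% of all genes tested. That gene, TNFRSF10A, a receptor for the ligand TRAIL, had 15.8 ± 3.67 against 31.3 ± 2.15 CPM (SD, n = 3). Its log2 fold change was -0.99 (SE 0.17, edgeR adjusted p = 0.00244).

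Among 15 other transcription regulators linked to BCL2 family genes, 2 were higher and 3 lower. The share called was 33.3%, against 20.6% of all genes tested. NFKB1, a subunit of NF-kB, had 113 ± 5.49 against 65.7 ± 0.986 CPM (SD, n = 3; 0.78, edgeR adjusted p = 0.000482), and STAT3 was higher by 0.37 (edgeR adjusted p = 0.0414), a call lost in 7 of 15 alternatives: 5 of the 6 fits without a library, the replicate block (adjusted p 0.0663) and upper-quartile factors (0.0643). MITF (-0.92), MYC (-0.86, edgeR adjusted p = 0.00374) and DDIT3 (-0.69, edgeR adjusted p = 0.00902) were lower. DDIT3 encodes CHOP, a stress factor known to raise BIM. The forkhead factor FOXO3, also known to induce BIM, had a log2 fold change of 0.12 (edgeR adjusted p = 0.684). The part of DDIT3, FOXO3 or the other regulators in the BCL2L11 difference was not tested. Of the 7 tested genes that act on the turnover or anchoring of the MCL1 and BIM proteins, 0 passed in edgeR, DESeq2 or limma. In edgeR 20.6% of all genes tested passed. The log2 fold changes of the 7 lay between -0.35 and 0.20, and 1, MARCHF5, had an unadjusted edgeR p below 0.05. The limma test on log2(TPM + 1) over all genes with a TPM above 0 ended the calls of BNIP3L, APAF1, CASP6, BIRC2, MITF and DDIT3.

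**Figure D5:**
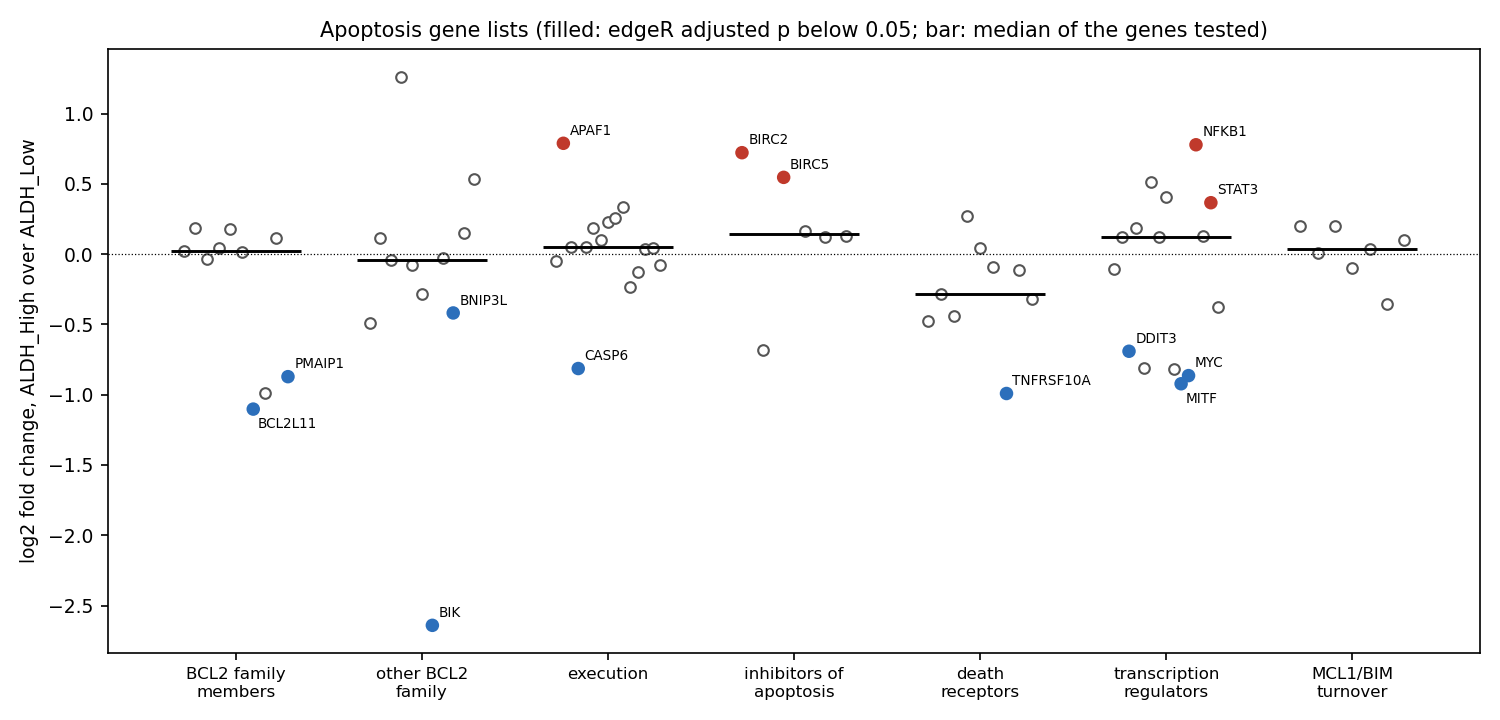
Log2 fold change (vertical axis) of the genes tested in the BCL2 family and in 6 surrounding gene lists (horizontal axis), filled red or blue where higher or lower at an edgeR adjusted p below 0.05, with the median as a bar. The median is 0.020 for the members, 0.15 for the inhibitor of apoptosis list and -0.28 for the death receptor list.

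The genes whose profile over the 6 libraries was most like that of PMAIP1, the member with the smallest p, were ZNF433-AS1, CELSR3 and DGKG. Their mean-centred log2 CPM differed from that of PMAIP1 by a root mean square of 0.0836, 0.0914 and 0.0927, where the median of 11022 genes was 0.495. ZNF433-AS1 is annotated as antisense and is uncertain for the reason given for BCL2L11.

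In the authors' deposited table, coefficients of the high and low groups are given against a further group named 1A3, whose libraries were not analysed here. For BCL2L11 the authors' deposited table has log2 coefficients of -0.56 for the high and 0.52 for the low group, on either side of that reference. For PMAIP1 the authors' deposited table has 0.24 and 1.09, so the high group was nearer to the reference than the low group. For MCL1 the authors' deposited table has 0.64 and 0.51, and for BCL2A1 -1.61 and -1.79, which set both sorted groups on the same side.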

How the data were processed

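The authors deposited counts per gene that are estimated counts rounded to whole numbers, as read from the values: 133 to 177 genes per library have a count of 0 beside a TPM above 0. The authors also deposited TPM values (per length, scaled to the same sum in each library; gene lengths not stated). The authors' deposited log2 coefficients carry the column names of a DESeq2 model of 5 groups, per the file headers. Per the submitters' processing notes, FastQC 0.11.3, STAR 2.5.1b, HTSeq 0.6.1, DESeq2 and GRCh38 were used; the annotation and strand setting are not given in the sources used here. Rows without a gene name (261, 0.0213% to 0.0267% of counts) have Ensembl identifiers and stayed in.

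All genes passing filterByExpr were fitted together with edgeR 4.0.16 (TMM, glmQLFit, glmQLFTest, two-sided, no covariate), with Benjamini-Hochberg adjustment over all genes tested and a threshold of 0.05. The script was tested on simulated data. CPM use TMM-scaled library sizes, and standard errors come from the fold change and the F statistic. Alternatives used limma 3.58.1 and DESeq2 1.42.0. Members and lists were chosen with earlier results of these data known. Named by rule are the members, ALDH1A3 and, per list, up to 3 higher and 3 lower genes of smallest p past the threshold. The rule adds the 3 profiles most like the member of smallest p. Named outside that rule are the cell markers, genes that overlap or copy a member, BAD, BCL2L2, FOXO3 and MARCHF5. MARCHF5 was matched by Ensembl identifier, the other list genes by name. Positions are from GENCODE 44 (GRCh38), matched for 99.1% of tested genes, and promoter sequences from RefSeq (GRCh38.p14). Some genes and 1 list drawn up for the analysis are not reported here.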

Additional observations from a re-analysis of the deposited data

How the results depend on the processing

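PMAIP1 was lower and past the threshold in all 15 refits (log2 fold change -0.97 to -0.76), and BCL2L11 in 14 of 15 (-1.24 to -0.87). The exception was limma on log2(TPM + 1) over all genes with a TPM above 0 (-0.87, adjusted p 0.0508), which called 1 member and 2006 genes in all. A log2 fold change of at least 1 left 1 member and 1958 genes, stricter by construction, and an adjusted p below 0.01 left 2 members and 1930 genes. Leaving out each library in turn gave 2 members every time and 2488 to 4221 genes, the most without ALDH_High library 1. With the replicate block, 2 members and 3748 genes passed, and no member's call changed. The deviations of equally numbered libraries correlated at 0.15, 0.076 and 0.11, and those of differently numbered libraries at -0.10 to 0.023. Each library thus correlated best with its own number. The labels do not say whether equal numbers mark pairs.

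No other member passed under any alternative, and the sign of 5 changed, all with intervals across 0. Under upper-quartile factors BCL2 was -0.0055, BCL2L1 -0.032 and BAK1 -0.026. BBC3 was 0.0062, 0.0067 and 0.0062 in limma with pseudocount 1, with 0.1, and with 1 over all genes. Without a library the values ran from -0.064 to 0.15 for BCL2 (below 0 without ALDH_High 3 or ALDH_Low 3), -0.046 to 0.14 for BCL2L1 (ALDH_Low 2 or 3), -0.26 to 0.59 for BCL2A1 (ALDH_High 2 or ALDH_Low 1), -0.12 to 0.12 for BAK1 (ALDH_High 1 or ALDH_Low 3) and -0.13 to 0.073 for BBC3 (above 0 without ALDH_High 3). What caused these shifts was not tested. BMF gave no value where at least 10 counts in every library or a mean TPM of at least 1 was required, and BCL2A1 none under the former. Counts of 6 to 39 for BCL2A1 and 9 to 86 for BMF, and their spread between libraries, limit what can be seen of them.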
